A study of Schizosaccharomyces pombe with 22 samples.

Results

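The genes sod2 (SPAC1486.01), trx2 (SPBC12D12.07c) and trr1 (SPBC3F6.03) of fission yeast, Schizosaccharomyces pombe, encode enzymes of oxidative stress defence. They were chosen by their identifiers, as 3 of the 2356 genes with an annotated intron in the deposited lariat table, together with every branch and junction inside each gene's span on its own strand. Each has 1 annotated intron. Introns were read as lariats, the looped RNA that splicing releases, in which the first base of the intron is joined to a branch point near its end. Lariat sequencing was done on total RNA of the dbr1 deletion in the 972h- background, after heat shock, after the diauxic shift (the change from fermenting glucose to respiring as glucose is used up) and in rich media, with 4 libraries a condition: a long and a short gel fraction, 2 replicates each. All lariat libraries thus lack dbr1, the enzyme that opens lariats so that they can be degraded. RNA-seq of polyadenylated RNA came from the dbr1 deletion and from wild type 972h-, 1 library for each pairing of strain and condition, and from ED668 with upf1 deleted and ED668 itself, 2 libraries each; upf1 encodes a helicase of nonsense-mediated decay. Cells grew at 30 °C outside heat shock, and the labels name no temperature or duration for the heat shock. Nothing in the labels says that libraries came from separate cultures, so p-values measure only the spread between these libraries, which may be technical. For RNA-seq of the 972h- strains, with 1 library for each pairing, that spread is what additive effects of strain and condition leave over.

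Superoxide, a by-product of respiration, is turned into hydrogen peroxide by superoxide dismutases, and peroxide is in turn reduced by peroxidases that draw their electrons from thioredoxin. The sod2 gene encodes the manganese superoxide dismutase of mitochondria, trx2 a mitochondrial thioredoxin, a small protein that reduces disulfides of other proteins, and trr1 the thioredoxin reductase, which recharges thioredoxin with electrons from NADPH. Peroxide-responsive transcription factors and a stress-activated kinase pathway control many genes of this kind in fission yeast.

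The 3 introns differ in length, base composition and branch sequence. Those of sod2 and trx2 are shown here because their lariat values and alternate sites below refer to them. Capitals mark the 5' splice site (GT), the 5 bases around the branch point, the A before the last of them, and the 3' splice site (AG). The sequences were read 5' to 3' on the gene's strand from the RefSeq genome of build ASM294v3 at the deposited positions (build ASM294v2, per the submitters' processing notes). All 17799 deposited branches had GT at the 5' splice site and A at the branch point on that reference.
sod2 intron, chromosome I, 3185578 to 3185700, forward strand: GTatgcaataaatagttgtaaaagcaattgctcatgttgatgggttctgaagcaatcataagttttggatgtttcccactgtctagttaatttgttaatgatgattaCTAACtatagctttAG
trx2 intron, chromosome II, 2318252 to 2318333, reverse strand: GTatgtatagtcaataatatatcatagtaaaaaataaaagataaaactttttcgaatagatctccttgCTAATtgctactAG

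The sod2 intron has 123 bases and lies in the coding sequence after 108 of 657 coding bases, between codons. Its branch sequence, CTAAC, is that of 49.3% of the 2812 annotated introns with a branch point. The trx2 intron has 82 bases, lies after 134 of 402 coding bases, and has the branch sequence CTAAT, found at 21.2% of introns. The trr1 intron has 299 bases, and 54 of the 4701 annotated introns are longer. Its branch sequence, CTGAC, is found at 4.98% of introns. It interrupts the start codon, after 1 coding base of 969. The branch point lay 12 bases before the last base of the intron in sod2, 10 in trx2 and 9 in trr1, against a median of 12 over 2774 annotated introns.

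Lariat counts of the 12 libraries come as a single sum for each condition, from 9467948 aligned lariat reads in heat shock, 9854589 in diauxic shift and 53284863 in rich media. Branch reads at annotated introns numbered 414698, 1273655 and 1253548 in the same order, over the introns whose condition counts add up to their deposited total. Levels below are branch reads scaled to 1000000 annotated branch reads (RPM). Replicates were added into these sums and cannot be separated, so comparisons between conditions carry no test. The 95% intervals (exact Poisson for levels, exact binomial for ratios and shares) cover counting error only. PCR copies could not be separated from independent molecules. Lariat reads depend on how much pre-mRNA is made, how much is spliced and how well a lariat is recovered, which cannot be told apart here, nor can fewer cells and less RNA per cell.

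The sod2 intron gave few lariat reads, most of them after the diauxic shift. It had 6 branch reads in heat shock, 60 in diauxic shift and 4 in rich media. Its level was 14.5 RPM (interval 5.31 to 31.5) in heat shock, 47.1 (35.9 to 60.6) in diauxic shift and 3.19 (0.869 to 8.17) in rich media. The diauxic interval lay above both others, while those of heat shock and rich media overlapped. Among the 100 introns nearest in length, with listed lengths of 118 to 129 bases, the median level was 360.5 RPM in heat shock, 397.7 in diauxic shift and 167.1 in rich media. Only 9, 17 and 8 of these 100 introns had fewer reads than sod2 in the 3 conditions, so sod2 stood near the low end of introns of its length throughout.

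The trx2 intron had many reads. Its level by annotated branch reads was nearly the same in diauxic shift and rich media and lower in heat shock, an order that depends on the scaling (below). It had 200 branch reads in heat shock, 1484 in diauxic shift and 1562 in rich media. These gave 482.3 RPM (417.8 to 554.0) in heat shock, 1165 (1107 to 1226) in diauxic shift and 1246 (1185 to 1309) in rich media. The heat shock interval lay below both others, and those of diauxic shift and rich media overlapped. Introns of like length, 81 to 85 bases, had medians of 190.5, 65.2 and 325.9 RPM in the same order. Of 100 such introns, 70 had fewer reads than trx2 in heat shock, 92 in diauxic shift and 77 in rich media.

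The trr1 intron had its highest level in heat shock and, by annotated branch reads, its lowest in diauxic shift, the latter dependent on the scaling (below). It had 54 branch reads in heat shock, 11 in diauxic shift and 40 in rich media. The levels were 130.2 RPM (97.8 to 169.9) in heat shock, 8.64 (4.31 to 15.4) in diauxic shift and 31.9 (22.8 to 43.4) in rich media, with no overlap between the 3 intervals. Lariats of introns this long were scarce. Among the 100 introns nearest in listed length, from 268 to 507 bases, the median was 7.23 RPM in heat shock, 1.18 in diauxic shift and 1.59 in rich media, and 33, 38 and 24 of them had no read. The trr1 intron had more reads than 92 of the 100 in heat shock, 81 in diauxic shift and 93 in rich media.

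**Figure D1:**
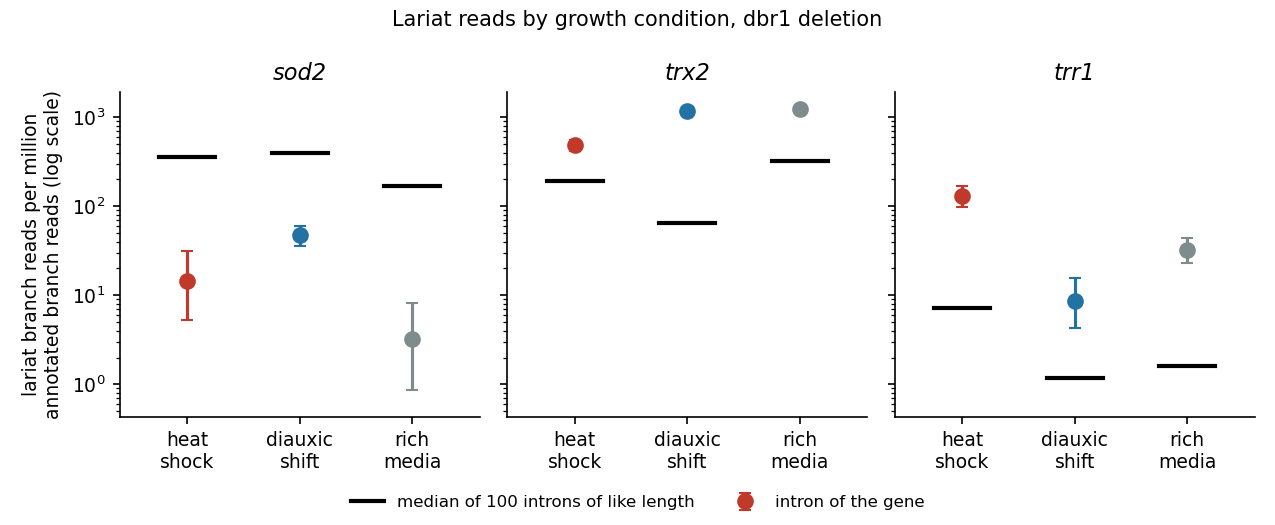
Lariat level in RPM (branch reads scaled to 1000000 annotated branch reads, log scale) of the sod2, trx2 and trr1 introns in heat shock, diauxic shift and rich media, as points with exact 95% Poisson intervals. Black bars give the median of the 100 introns nearest in length: sod2 lies below it in all 3 conditions, and trx2 and trr1 lie above it in all 3.

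The comparison with rich media was first made by reads scaled to annotated branch reads. The sod2 ratio of heat shock to rich media was 4.53 (95% counting interval 1.07 to 21.9), and the trr1 ratio was 4.08 (2.66 to 6.30). The trx2 ratio was 0.387 (0.332 to 0.449). Among the 1299 introns with at least 50 reads in the higher condition, 22% were more than 2-fold higher in heat shock and 41.9% more than 2-fold lower. The ratio of diauxic shift to rich media was 14.8 (5.47 to 55.9) for sod2, 0.935 (0.870 to 1.01) for trx2 and 0.271 (0.125 to 0.537) for trr1. Of 1338 introns 17% were more than 2-fold higher and 48.5% more than 2-fold lower in that comparison. By annotated branch reads the 3 genes thus had 3 different orders of their conditions: diauxic shift highest for sod2, heat shock highest for trr1, and heat shock lowest for trx2. Sizes, and for trr1 the direction, rest on the scaling. In diauxic shift against rich media, the log2 ratio of trr1 was 0.57 by all aligned lariat reads and -0.65 by TMM, compared with -1.88 by annotated branch reads, which leaves rich media lowest for trr1 by all aligned reads. That of trx2 was 2.36 and 1.14, compared with -0.10, which places diauxic shift above rich media under both. That of sod2 was 6.34 by all aligned reads, compared with 3.88.

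These ratios go with intron length across all introns. Spearman's rho between listed length and the log2 ratio to rich media was 0.815 over 1299 introns for heat shock and 0.823 over 1338 introns for diauxic shift, a description across introns of the same libraries. Each log2 ratio was therefore set against the running median of the introns nearest in length (50 on each side where there are as many) among those with at least 50 reads in the higher condition, with a pseudocount of 0.5. That difference does not depend on how the conditions are scaled to each other. The part of gel recovery in the dependence on length was not tested.

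Against introns of like length, the ratio of diauxic shift to rich media was higher for sod2 and trx2 and lower for trr1. This concerns the ratio and not the level, which in diauxic shift was below the median at its length for sod2 and above it for trr1. For sod2 the diauxic log2 ratio lay 2.64 above the length median (interval 1.37 to 4.72), or 6.25-fold, and above those of 99 of 100 introns with listed lengths of 117 to 130 bases. The sod2 intron passed the minimum through its 60 diauxic reads alone, against 4 in rich media, so this rank is partly set by the filter. Against a straight line on log2 length, a setting added after the values were seen, the sod2 difference was 3.93. For trx2 the diauxic log2 ratio lay 2.11 above the length median (2.01 to 2.21), or 4.32-fold, and above 97 of 100 introns of 80 to 85 bases. By annotated branch reads the trx2 log2 ratio was -0.10, while the median at its length was -2.21. Of all 1338 introns over the minimum, 15.3% lay more than 2-fold above and 18% more than 2-fold below the median at their length. The trr1 intron was under the minimum of 50 reads in this comparison, with 11 reads in diauxic shift and 40 in rich media. Its log2 ratio lay 2.58 below the median of introns of 185 to 289 bases (difference -2.58, interval -3.73 to -1.63), and none of these introns was lower. They had all passed the minimum that trr1 did not, so this rank is partly set by the filter. All of these introns were shorter than that of trr1. Against the straight line that difference was -6.03.

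Against introns of like length in heat shock, none of the 3 genes was beyond 2-fold by its interval. The sod2 value, from 6 and 4 reads and under the minimum, lay 1.26 above on the log2 scale (interval -0.77 to 3.58), so a difference was not detectable at this depth. The trx2 log2 ratio differed from the length median by -0.59 (-0.81 to -0.38), a lower value than in 73 of 100 introns of like length. The trr1 log2 ratio differed by 0.51 (-0.10 to 1.14), above 72 of 100 introns of 179 to 289 bases. With 54 reads in heat shock against 40 in rich media, trr1 passed the minimum through heat shock alone. Its rank is therefore partly set by the filter. No intron over the minimum in this comparison was longer than that of trr1, so the comparison set was shorter throughout. With only the 21 nearest introns, a setting added after the values were seen, the trr1 difference was -0.17, and against the straight line it was -1.65. Of 1299 introns, 13.4% were more than 2-fold above and 15.9% more than 2-fold below the median at their length in heat shock.

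Set directly against each other, heat shock had lower lariat levels than diauxic shift for sod2 and trx2 and a higher level for trr1. These values share their libraries with the comparisons above. The ratio of heat shock to diauxic shift was 0.307 (0.108 to 0.709) for sod2, 0.414 (0.355 to 0.480) for trx2 and 15.1 (7.79 to 32.0) for trr1. Over 968 introns, 37.2% were more than 2-fold higher and 15.8% more than 2-fold lower. Against introns of like length, the trx2 log2 ratio differed by -2.70 (-2.93 to -2.49), and 2 of 100 introns of 79 to 86 bases were lower; against the straight line the difference was -1.76. The sod2 difference was -1.43 (-3.04 to -0.33), with 13 of 100 introns lower. The trr1 difference was 3.13 (2.22 to 4.26), above all 100 introns of 185 to 289 bases and above 964 of the 968 introns of any length. All of those 100 introns were shorter than that of trr1. Here trr1 (54 reads against 11) passed the minimum through heat shock alone, and sod2 (6 against 60) through diauxic shift alone. Their ranks are therefore partly set by the filter. In this comparison 15.8% of introns lay more than 2-fold above and 15% more than 2-fold below the median at their length.

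**Figure D2:**
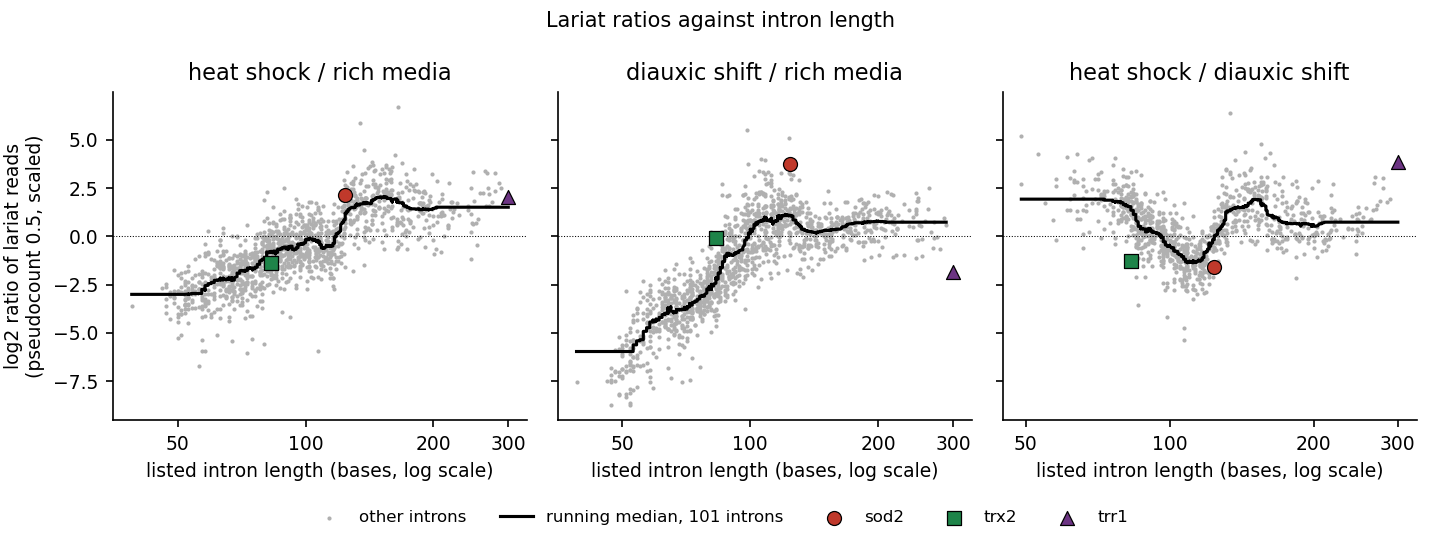
Log2 ratio of lariat reads between conditions (scaled by annotated branch reads, pseudocount 0.5) against listed intron length in bases (log scale), for heat shock over rich media, diauxic shift over rich media and heat shock over diauxic shift. Grey points are other introns with at least 50 reads in the higher condition and the line is the running median over introns nearest in length: in the diauxic panel sod2 and trx2 lie 2.64 and 2.11 above the line and trr1 lies at its long end and below it.

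The introns with the most similar pair of length-adjusted ratios (heat shock and diauxic shift, each against rich media) were taken from 1357 introns with at least 50 reads in their highest condition. For sod2 they were intron 3 of nbs1 (distance 0.130 on the log2 scale), intron 1 of pxp2 (0.345) and intron 2 of cid1 (0.378). The heat shock value of sod2 rests on 6 and 4 reads, under the minimum, with an interval of -0.77 to 3.58. The sod2 intron entered this set through its 60 diauxic reads alone. Its distances and their order therefore lie within its counting error. The nbs1 intron had 177 reads in heat shock, 2521 in diauxic shift and 234 in rich media. For trx2 they were intron 2 of php3 (0.0991), the intron of dia4 (0.263) and intron 1 of glo3 (0.331). All 3 are shorter than the trx2 intron, with listed lengths of 54 to 58 bases, and had at most 17 reads in diauxic shift and 7 in heat shock. For trr1 they were intron 2 of pre5 (0.258), intron 1 of rpb9 (0.267) and intron 1 of SPBC16E9.02c (0.329), which had 449 reads in heat shock, 152 in diauxic shift and 1523 in rich media. The pre5 intron had 0 reads in diauxic shift, so its place in this order depends on the pseudocount. For trr1 itself the diauxic value, from 11 and 40 reads, was under the minimum (interval -3.73 to -1.63). It entered this set through its 54 heat shock reads alone. The trr1 distances therefore lie within its counting error too.

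The deposited table also gives each intron a value headed Peak counts, which neither the labels nor the header define. It sums to 54274652 over all introns, beside 51704410 lariat reads of the intron class. The sod2 intron stood high on this value and low in branch reads: its Peak counts were 66887, above 83 of the 100 introns nearest in length, while its branch reads were 70 in all. That is 1.05 branch reads per 1000 Peak counts, against a median of 48.8 for introns of like length, and only 3 of 99 such introns had a lower value. The trx2 intron had 24129 Peak counts and 134.5 branch reads per 1000, near the median of 152.7 at its length. The trr1 intron had 12495 Peak counts and 8.40 branch reads per 1000, above 80 of 100 introns of like length, whose median was 3.23.

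**Figure D3:**
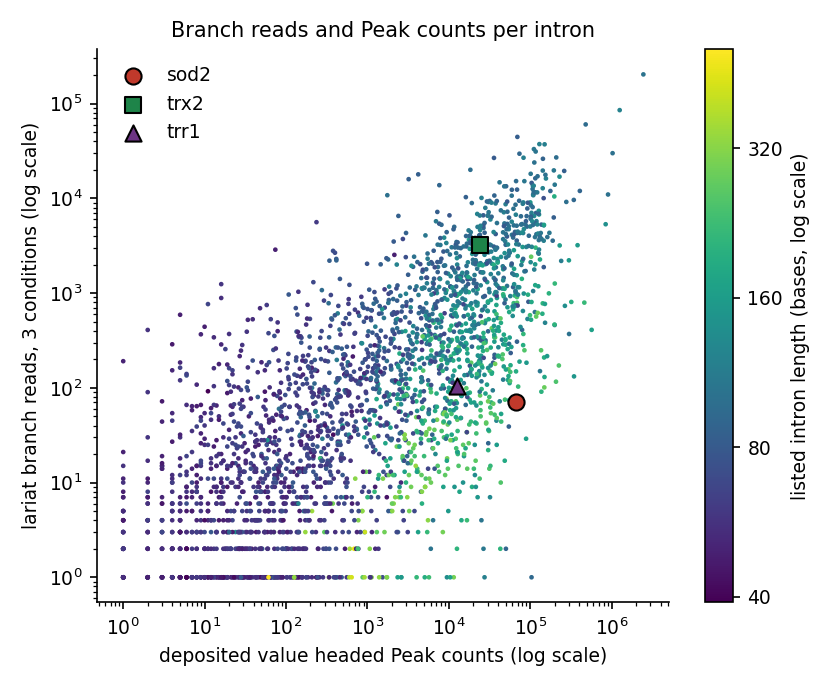
Lariat branch reads summed over the 3 conditions against the deposited value headed Peak counts, both on log scales, for every intron with at least 1 of each and complete condition counts, coloured by listed intron length in bases. The sod2 intron, with 70 branch reads and 66887 Peak counts, lies at the lower edge of the cloud, and trx2, with 3246 and 24129, lies within it.

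Most branch reads of the 3 genes were assigned to the annotated splice sites. The sod2 intron gave the largest share of other branches, mostly assigned to an AG upstream of its annotated 3' splice site. The interval of its share of alternate reads (6.16% to 21.8%) overlapped that of trr1 (2.01% to 11.4%). The 30 bases of sod2 from the first branch point used are printed with both AGs in capitals, and again with the 4 branch points in capitals.
sod2 end of the intron, 3' splice sites, chromosome I, 3185675 to 3185704: atgatgattactaactatAGctttAGgcac
sod2 end of the intron, branch points, chromosome I, 3185675 to 3185704: AtgAtgattActaActatagctttaggcac
All 70 annotated reads branched at the last of these, 3185688. The deposited table assigned the other branch points to the upstream AG, which ends at 3185694, 6 bases before the annotated one. The main branch point lies 6 bases before the end of that AG, and the shortest such distance to the annotated 3' splice site among the 2774 introns was 7 bases. The other branch points had 7 reads at 3185684 (2 in heat shock, 5 in diauxic shift and 0 in rich media) and 1 diauxic read each at 3185675 and 3185678. A further diauxic read began at a 5' splice site 14 bases downstream. Together the 10 reads were 12.5% of the gene's annotated and alternate reads (exact binomial interval 6.16% to 21.8%). By condition the share was 2 of 8 reads (3.19% to 65.1%) in heat shock, 8 of 68, or 11.8% (5.22% to 21.9%), in diauxic shift, and 0 of 4, an upper limit of 60.2%, in rich media, so no difference between conditions was detectable at this depth. Of the 1498 other introns with at least 50 annotated reads, 68 had a share at or above that of sod2, or 4.54% of them, and the median share was 0.0698%.

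Splicing to the upstream AG of sod2 leaves 6 intron bases in the message. In the annotated reading frame these place a TAG stop codon at codon 38, against the annotated stop at codon 219. Of 947 upstream 3' splice sites with a host intron in the deposited table, 16 (1.69%) lay exactly 6 bases upstream, and the median was 60 bases. The RNA-seq junction table held this sod2 junction with 10 reads over the 10 libraries, and 208 of 2942 alternate junctions had as many or more. In the growth series it had 2 reads in the dbr1 deletion and 3 in wild type in heat shock, 0 in the dbr1 deletion and 2 in wild type in diauxic shift, and 0 in both strains in rich media. It had 3 and 0 reads in the 2 libraries of the upf1 deletion, against 0 and 0 in those of ED668. The reads thus lay in the heat shock and diauxic libraries of the growth series and in 1 upf1 deletion library. Reads across the annotated sod2 junction and sod2 message levels were not analysed here. A change in use of the site therefore cannot be told apart from a change in the amount of message. RNA-seq libraries held 12330328 to 36500561 aligned reads, so these are at most 3 reads per library.

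In edgeR's quasi-likelihood test over the junction table, no junction of the 3 genes passed the filter on low counts, so none was called. In the same fits 3.7% of 27 junctions were called for heat shock against rich media, 0% for diauxic shift against rich media (0 at adjusted p below 0.05 by edgeR and by DESeq2, 3 and 0 at unadjusted p), 0% for the dbr1 deletion against wild type (0 by both tools, 2 and 0 at unadjusted p), and 30.6% of 62 for the upf1 deletion against ED668. That last count, 19 junctions, was 6 by DESeq2, 0 without either library of the upf1 deletion, 7 without ED668 library 1 and 17 without ED668 library 2. For heat shock the count was 1, with 2 by DESeq2, 0 without the wild type rich media library and 2 without the dbr1 deletion heat shock library. For diauxic shift it was 1 without the wild type and 3 without the dbr1 deletion heat shock library. Without the filter the sod2 junction had an edgeR adjusted p of 1 for heat shock, 1 for diauxic shift, 0.998 for the dbr1 deletion and 0.793 for the upf1 deletion. The other 5 junctions listed for the 3 genes had no RNA-seq read, as had most alternate junctions: 27.6% of the 2942 had any.

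All but 1 of the trx2 branch reads shared the branch point at 2318262, and they began at 3 neighbouring 5' splice sites, marked by capital GTs in the sequence across its 5' end.
trx2 end of exon 1 and start of the intron, chromosome II, 2318314 to 2318343, reverse strand: ctcgaattagGTatGTataGTcaataatat
The annotated site, first from the left, had 3246 reads. The site 4 bases downstream had 16 reads, 1 in heat shock, 4 in diauxic shift and 11 in rich media, and was in none of the deposited lists of alternate or unannotated branches. Its share of all trx2 branch reads was 0.498% (0.0126% to 2.74%) in heat shock, 0.269% (0.0732% to 0.686%) in diauxic shift and 0.699% (0.349% to 1.25%) in rich media, with intervals that overlapped. Use of that site keeps 4 intron bases, which is no multiple of 3 and places a TGA stop at codon 48 of a frame annotated to end at codon 134. The site 9 bases downstream had 1 read and keeps the frame. The remaining read, in rich media, branched at 2318256 and was assigned to a 3' splice site at 2318241. Counting listed alternates only, 2 reads made a share of 0.0616% for trx2, and 759 other introns had a share as high or higher, or 50.7% of them.

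In trr1, 103 of 105 annotated reads branched at 4190257, and 1 read each at 4190186 and 4190248. Alternate branches were assigned by the depositors to upstream 3' splice sites, which a lariat read does not itself show. They were 5 reads over 3 branch points assigned to a site at 4190093, of which 2 were in diauxic shift and 3 in rich media, and 1 heat shock read assigned to 4190128. No RNA-seq library had a read across either junction. The 6 reads were 5.41% of annotated and alternate reads (2.01% to 11.4%), and 153 other introns, or 10.2%, had a share at or above it. By condition the share was 1.82% (0.0460% to 9.72%) in heat shock, 15.4% (1.92% to 45.5%) in diauxic shift and 6.98% (1.46% to 19.1%) in rich media, with intervals that overlapped. If used, neither upstream site would complete the start codon: the first 3 bases would read ATA with the site at 4190093 and AAT with that at 4190128.

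**Figure D4:**
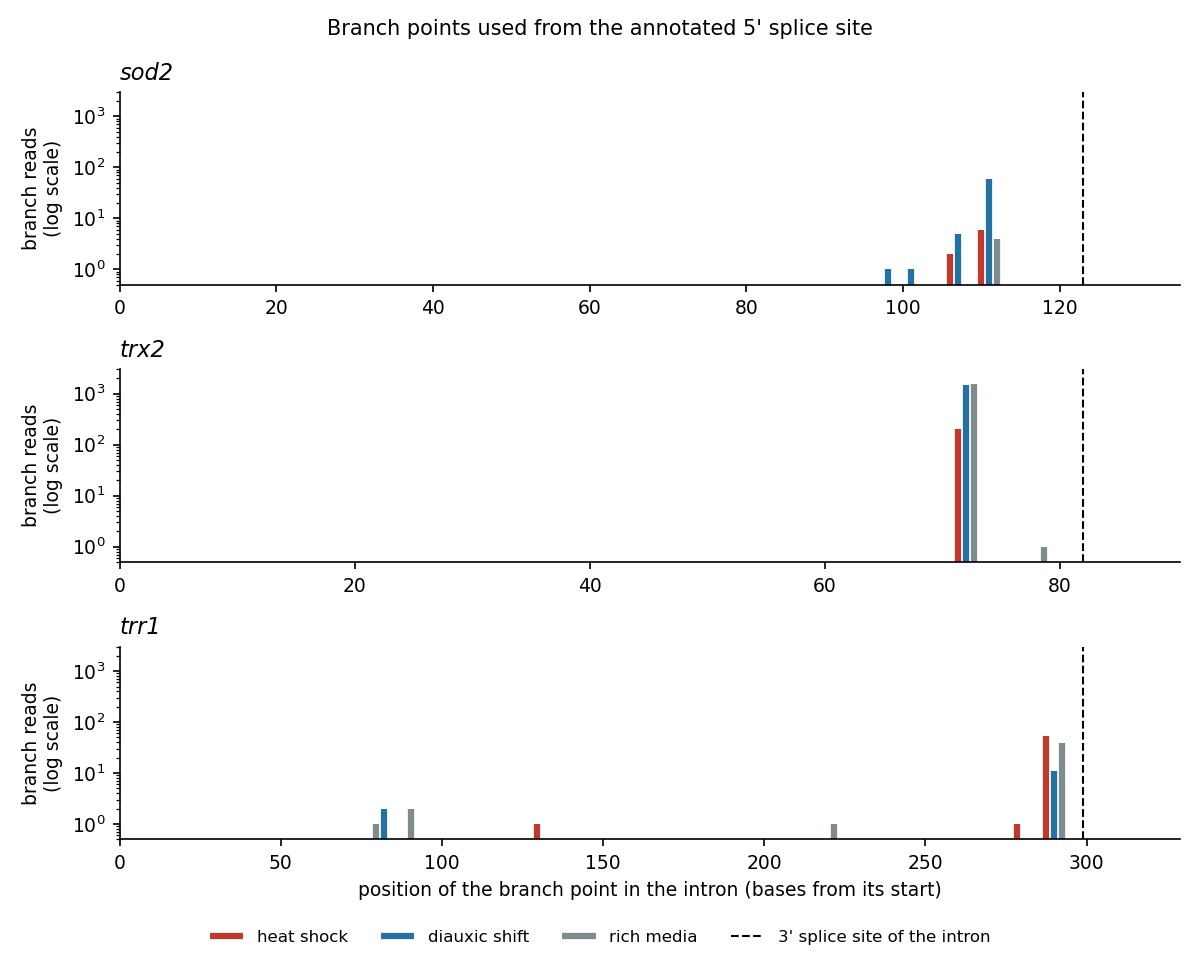
Branch reads (log scale) by position of the branch point in the intron, in bases from its start, for branches that begin at the annotated 5' splice site of sod2, trx2 and trr1, in heat shock, diauxic shift and rich media. Bars of the 3 conditions are set side by side around their position, and the dashed line marks the annotated 3' splice site: the most used branch point lies 12 bases from it in sod2, 10 in trx2 and 9 in trr1.

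A further branch lay near the start of sod2, from a 5' splice site at 3185382 to a branch point at 3185467, listed by the authors as unannotated and of the 5' UTR class. The stretches around it are printed because the assigned 3' splice site lies past the start codon. Capitals mark the GT in the first, and the bases around the branch point, the start codon ATG and the AG in the second.
sod2 unannotated 5' splice site, chromosome I, 3185377 to 3185396: ttaagGTatttaacaaagaa
sod2 unannotated branch point and 3' splice site, chromosome I, 3185462 to 3185491: ttTTAACgATGcttcgctttttgtctaAGa
It had 2 reads in heat shock, 5 in diauxic shift and 3 in rich media. Of all branch reads of the gene these were 2 of 10 (2.52% to 55.6%) in heat shock, 6.85% (2.26% to 15.3%) in diauxic shift and 42.9% (9.90% to 81.6%) in rich media. The share in diauxic shift was lower than that in rich media, and their intervals overlapped. With the assigned 3' splice site at 3185490, splicing would remove 21 coding bases, the start codon included. No RNA-seq library had a read across this junction. Of 857 unannotated branches of the 5' UTR class, 145 had at least as many lariat reads and 340 had 1 read.

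Other genes of oxidative stress and redox balance were taken from a list of 54 symbols, of which 52 matched 51 distinct genes and 18 had an annotated intron, 33 introns in all. Matching was by symbol or synonym alone, so a gene of another function that bears a listed symbol, ccp1 possibly among them, would be counted. In heat shock, 16 introns of 11 genes were over the minimum of 50 reads. Of these, 3 lay more than 2-fold above and 2 more than 2-fold below the median at their length, and the median difference was 0.08 on the log2 scale, against 0.001 over all introns. The shares, 18.8% and 12.5%, stand beside 13.4% and 15.9% of all introns. Highest was intron 2 of gcs2, a glutamate-cysteine ligase gene of glutathione synthesis, with a log2 difference of 2.01 and 114 reads in heat shock against 23 in rich media. That intron passed the minimum through heat shock alone, so its place is partly set by the filter. Intron 4 of gnd1, a 6-phosphogluconate dehydrogenase that makes NADPH, differed by 1.39, with 190 reads against 77. Intron 4 of prr1, a stress transcription factor, differed by 1.06, with 1679 reads against 665. Below 2-fold lay the intron of mak1, a sensor histidine kinase (-2.17, 25 reads in heat shock against 379 in rich media), and intron 3 of ccs1, the copper chaperone of superoxide dismutase (-2.15, 3 reads against 70). Both passed the minimum through rich media alone, so their places are partly set by the filter as well. The prr1, gnd1, gcs2 and ccs1 genes had other introns over the minimum that lay within 2-fold, so introns of 1 gene differed among themselves. For ccs1 this was intron 2, at 0.35 with 292 reads in heat shock against 177 in rich media.

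In diauxic shift, 16 introns of 12 listed redox genes were over the minimum, and none lay more than 2-fold above introns of like length, where 15.3% of all introns lay. Below by more than 2-fold were 5, or 31.25%, beside 18% of all introns. These were mak1 (-2.08, 117 reads in diauxic shift against 379 in rich media), intron 4 of prr1 (-1.68, 247 against 665), intron 3 of grx2, a glutaredoxin (-1.66, 514 against 5241), intron 1 of prr1 (-1.64, 122 against 409), and zwf1, glucose-6-phosphate dehydrogenase (-1.08, 164 against 165). Of the 16, 4 lay above and 12 below the median at their length, with a median difference of -0.53, against -0.0004 over all introns. Among listed introns with the most reads, intron 3 of ccp1, which entered by its symbol alone, lay within 2-fold in both comparisons. It was at -0.83 in heat shock and -0.97 in diauxic shift. Intron 2 of grx1, a glutaredoxin, was left out with intron 1, because their condition counts did not add up to the deposited totals.

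**Figure D5:**
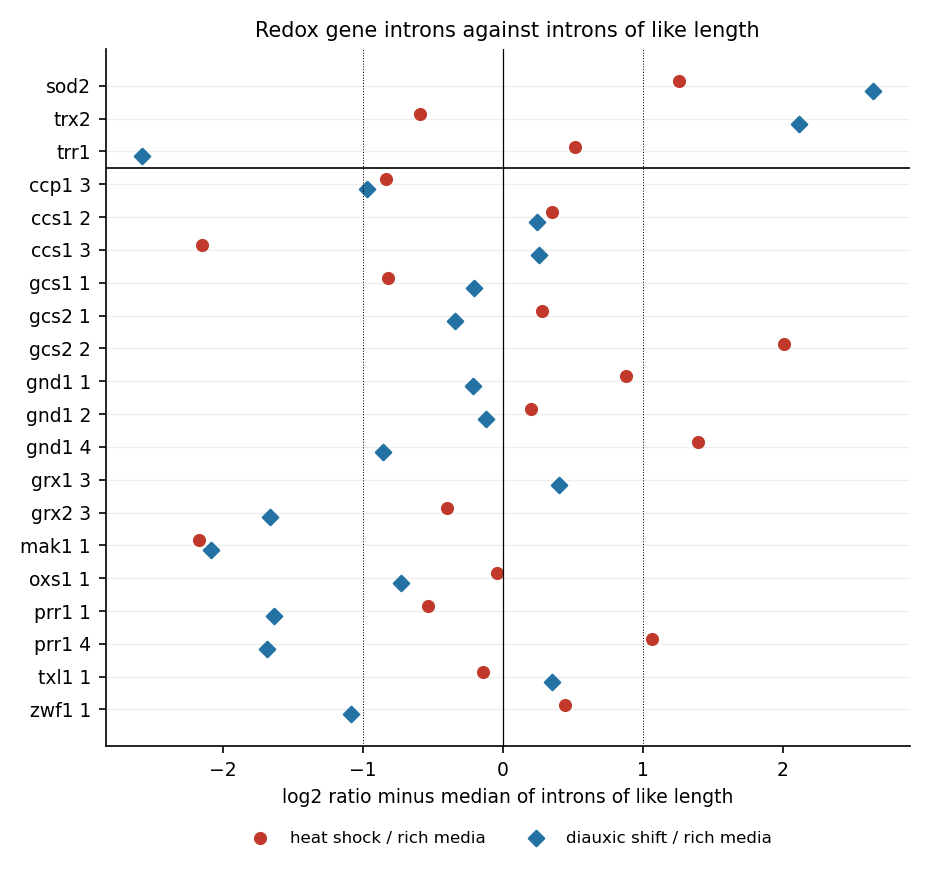
Log2 ratio minus the median of introns of like length, for heat shock over rich media (red circles) and diauxic shift over rich media (blue diamonds), for sod2, trx2 and trr1 (above the line) and for the introns of other redox genes with at least 50 reads in the higher condition (gene and intron number). Dotted lines mark a 2-fold difference: the diauxic values of sod2 and trx2 are 2.64 and 2.11, and no other listed diauxic value exceeds 1.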

How the data were processed

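Lariat and RNA-seq junction values are read counts as deposited, whole numbers with no scaling, and the lariat ones had been added up by the authors within each condition. Other values (positions, listed lengths, classes, Peak counts) are as deposited. No label or header names the aligner; positions refer to ASM294v2, per the submitters' processing notes. Listed length is 1 base above intron length. Of 4701 introns, 45 whose condition counts did not add up to their total were left out.

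Since the lariat tables hold 1 column per condition, the ratio with its exact interval took the place of a test. Length windows held 50 introns on each side where there were as many. For the trr1 ratios all introns in the window were shorter than that of trr1. For RNA-seq junctions edgeR 4.0.16 (in R 4.3.3) gave the quasi-likelihood test, with TMM, filterByExpr at a minimum count of 10, Benjamini-Hochberg adjustment, aligned reads as library size, and strain or condition as covariate. DESeq2 1.42.0 was the second tool. Scripts were tried on simulated data. Python 3.11.15 was used with SciPy 1.17.1, NumPy 2.4.6, pandas 2.3.3 and, for plots, matplotlib 3.10.9. RNA-seq levels of whole genes, the deleted dbr1 and upf1 included, were not analysed here. The trr1 sequence is not reported here.

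The members and lists were chosen with earlier results of these data known. Named were all introns and branches of the 3 genes, the 3 introns nearest to each in adjusted ratios, and, of other redox genes, those beyond 2-fold and the 4 introns with most reads (grx2, ccp1, grx1, prr1). Alternatives changed the scaling, length window, pseudocount, read minimum, branch points summed, filter, tool and libraries.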

Additional observations from a re-analysis of the deposited data

How the results depend on the processing

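Within their counting interval stayed 64 of 72 values against introns of like length and 6 of 18 scaled ratios. Where reads are few that interval is wide, so staying within it says little on stability. The sod2 diauxic difference, for 1, counted as within at 3.93 on the straight line, compared with 2.64. The count of introns beyond 2-fold of their length median was 380 in heat shock, 446 in diauxic shift and 298 between them, and its alternatives ran from 284 to 530, 350 to 669 and 214 to 484. Scaled by all aligned lariat reads, the log2 ratio to rich media in diauxic shift was 6.34 for sod2, 2.36 for trx2 and 0.57 for trr1, the last with its direction reversed, and in heat shock it was -0.47 for trx2 and 2.93 for trr1; heat shock against diauxic shift gave -3.26 for sod2, -2.83 for trx2 and 2.35 for trr1. Scaled by TMM, trx2 gave -1.03 in heat shock, 1.14 in diauxic shift and -2.16 between them, and trr1 -0.65 in diauxic shift. Against introns of like length, the trx2 diauxic difference was 2.37 in a narrower window of 51 introns, 2.22 in a wider one and 2.65 with 21 introns. With 21 introns trr1 in heat shock was -0.17. A straight line on log2 length in place of the running median gave -0.25 for trx2 and -1.65 for trr1 in heat shock, -6.03 for trr1 in diauxic shift, -1.76 for trx2 between heat shock and diauxic shift, and 484 introns beyond 2-fold in that last comparison; the longest introns, from 179 bases (heat shock) or 185 bases (diauxic shift) upward, lay at a median of -0.83 (heat shock) and -1.72 (diauxic shift) from that line. The 21-intron and straight-line settings, and unfiltered fits with the replicate block or DESeq2, were chosen after seeing the data. With the replicate number as a replicate block for the upf1 deletion, 0 member junctions were called. No member junction passed the low-count filter in any filtered fit, those that leave out a library included, so their 0 calls say nothing on stability; the sod2 junction entered only the unfiltered fits. Those libraries share only a number: deviations of same-numbered libraries correlated at 0.04 over 143 junctions with at least 10 reads and -0.26 over 90 with at least 20, and the block moved the calls over all junctions to 0 of 62, from 19; without the filter it called 19 of 633, as many as the fit without the block. Leaving out lariat replicates was not run, since there is 1 column per condition. Read depth limits sod2 in heat shock and rich media, trr1 in diauxic shift and all RNA-seq junctions.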
